A study of Mus musculus with 6 samples.

Results

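Hes6 and 9 genes of the Notch pathway (Hes1, Hes5, Hey1, Hey2, Dll1, Dll3, Jag1, Notch1 and Notch3) were followed in mouse embryonic stem (ES) cells with and without REST, the zinc-finger repressor that keeps neuronal genes silent outside neurons. They were picked by gene symbol, which gave 10 genes and 14 probes out of 17759 genes and 25697 probes on the array. Total RNA of 6 samples was hybridised, each on its own array of the Illumina MouseRef-8 v2 bead chip: 3 samples labelled control (source FloRes, named Rest flox in the authors' deposited table) and 3 labelled REST KO (source FloResCre). All 6 come from the E14Tg2a ES cell line, and the labels give neither what drove Cre nor how many clones were used. The comparison addresses which genes change in ES cells when Rest is lost.

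Notch signalling runs between touching cells. Ligands of the Delta-like and Jagged families (Dll1, Jag1) bind Notch receptors on a neighbour, the receptor is cleaved, and its intracellular part joins the DNA-binding protein RBPJ to switch on Hes1, Hes5, Hey1 and Hey2. These encode helix-loop-helix repressors that hold back proneural genes and so keep neural progenitors undifferentiated. Hes6 belongs to the same family by sequence but is known from mouse and Xenopus to be induced by proneural factors rather than by Notch, to counteract Hes1 and to favour neuronal differentiation.

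The DNA just before the start of Hes6 is shown beside that of Hes5 and Hey2, whose genes are known Notch targets, since the report turns on how Hes6 differed from such genes. No promoter was available for Hes1 and Hey1, the Notch-induced genes that the arrays detected, whereas no array detected Hes5 or Hey2. Each stretch is the 250 bases before the RefSeq start, 5′ to 3′ on the gene's strand (build GRCm38.p6), with capitals marking TGGGAA, the core letters bound by RBPJ, or its reverse complement.
Hes6, chr1:91414039-91414288, minus strand: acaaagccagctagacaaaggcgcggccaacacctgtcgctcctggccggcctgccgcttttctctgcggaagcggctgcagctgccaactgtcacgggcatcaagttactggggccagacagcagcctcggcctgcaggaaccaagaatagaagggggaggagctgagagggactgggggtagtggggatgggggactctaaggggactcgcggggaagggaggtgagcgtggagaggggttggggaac
Hes5, chr4:154960673-154960922, plus strand: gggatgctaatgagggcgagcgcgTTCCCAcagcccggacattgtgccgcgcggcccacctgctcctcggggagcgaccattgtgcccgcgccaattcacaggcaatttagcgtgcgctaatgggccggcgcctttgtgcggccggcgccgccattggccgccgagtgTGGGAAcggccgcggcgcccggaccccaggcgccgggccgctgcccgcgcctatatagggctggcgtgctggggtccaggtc
Hey2, chr10:30842784-30843033, minus strand: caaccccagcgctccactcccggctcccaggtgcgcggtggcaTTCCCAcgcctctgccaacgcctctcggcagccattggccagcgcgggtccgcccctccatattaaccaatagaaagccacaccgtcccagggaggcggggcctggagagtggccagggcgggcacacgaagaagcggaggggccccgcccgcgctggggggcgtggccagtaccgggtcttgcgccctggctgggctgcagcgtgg
Hes5 held the core letters 2 times, starting 226 and 82 bases before its start, and Hey2 held them 1 time, 207 bases before. At all 3 places the letters were part of GTGGGAA or its reverse complement. The Hes6 stretch held them 0 times, as did the stretch before the second annotated start of Hes6. Of the 10 stretches found for 8 of the genes, those of Dll1 (2 starts), Dll3, Jag1, Notch1 and Notch3 also held none. Over all 32851 promoters of that length, 21.6% held TGGGAA and 5.42% held GTGGGAA on either strand, so a stretch with neither is the usual case. E-boxes (CANNTG, the letters bound by proneural and other helix-loop-helix proteins) were found 3 times before the first Hes6 start and 1 time before the second, and 66.2% of promoters hold at least 1. N-boxes (CACNAG, bound by Hes repressors) were found 1 time before the second Hes6 start, 1 time before Notch1 and 2 times before Notch3, and 36.7% of promoters hold at least 1. Hes5 and Hey2 held 1 E-box and 0 N-boxes each.

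Levels are given as log2 of the background-corrected and normalised intensity of a probe. A probe counted as detected on an array when its detection p was under 0.05, and it was tested when at least 3 arrays detected it. Of the 14 probes 8 were tested, covering 6 genes: Hes6, Hes1, Hey1, Dll1, Notch1 and Notch3. The other 4 genes (Hes5, Hey2, Dll3 and Jag1) were detected on none of the 6 arrays. A gene was called when the adjusted p of its brightest tested probe was under 0.05 in limma (two-sided, Benjamini-Hochberg over all 11388 tested probes). Errors of levels are SDs over 3 arrays and errors of fold changes are SEs of the fit. In bulk RNA, a change in the share of cells expressing a gene and a change in RNA per cell cannot be told apart.

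Across the arrays 42.5% to 44.9% of probes were detected, with median raw intensities of 120.5 to 132.8. Rest has 1 probe, which no array detected, so the genotype could not be checked with it. All 7 ES cell marker genes looked up (Pou5f1, Nanog, Sox2, Zfp42, Esrrb, Dppa5a and Tdgf1) were detected on all arrays and none was called. By the brightest probe all 7 had a log2 fold change below 0 in REST KO cells, with a median of -0.61 against -0.01 over all tested genes. Dppa5a was at -0.006, and its other tested probe gave 0.006. Both probes read 15.71 to 15.82 over the arrays, so high that a difference could be missed. Saturation was not tested. Pou5f1 was at -0.08 by its brightest probe and at -0.42 by its other probe. The lowest were Esrrb (-1.01 ± 0.41, adjusted p = 0.228), Zfp42 (-0.99 ± 0.45, adjusted p = 0.279) and Sox2 (-0.81 ± 0.17, adjusted p = 0.0714). Of these Sox2 alone had no overlap between genotypes, and its second probe, at lower signal, gave 0.07. Of 6 neuronal marker genes on the array 4 were detected on no array, Tubb3 and Dcx among them, as were 6 of 7 fibroblast genes and 4 of 6 endoderm genes. The endoderm gene Sox7 was the only one of these markers that was called: it was at 6.23, 6.38 and 6.36 in control cells and at 5.48, 5.48 and 5.49 in REST KO cells (adjusted p = 0.0239), and it was detected on the control arrays alone. Summed levels took the brightest probe of each gene, detected or not, so undetected genes added background. The summed level of the neuronal genes was 320.5 to 470.5 in control and 495.4 to 555.5 in REST KO cells on the linear scale. The 2 tested neuronal genes, Map2 and Elavl3, overlapped between genotypes (limma adjusted p = 0.345 and 0.311). The sum of the endoderm genes was 317.9 to 389.4 and 277.9 to 296.9, and that of the fibroblast genes 282.1 to 298.3 and 295.5 to 303.0. That of 4 neural progenitor genes was 140.4 to 158.0 and 174.7 to 203.4. Of these Pax6, Sox1 and Fabp7 were detected on no array and Nes (nestin) on the REST KO arrays alone. The part that such cells, or a shift in the ES cell genes, play in the values below was not tested. The control arrays hold the first 3 positions of the chip and the REST KO arrays the next 3, per the labels, so position and genotype cannot be told apart.

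Hes6 was the only gene of the 10 that was called, and it rose in REST KO cells by all 3 of its probes. Its brightest probe stood at 8.45, 8.86 and 9.09 in control replicates 1, 2 and 3 and at 10.06, 10.25 and 9.93 in the REST KO replicates. Every REST KO array was above every control array. The means were 8.80 ± 0.32 and 10.08 ± 0.16 (log2, SD, n = 3), a log2 fold change of 1.28 ± 0.18 (SE, limma adjusted p = 0.0310) or 2.43-fold. In raw intensity, before any correction, the same probe read 470.8 to 656.3 in control and 1083.3 to 1277.1 in REST KO cells.

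The other probes of Hes6, at lower signal, rose too. The middle probe was at 7.29, 7.13 and 7.61 in control and 8.74, 8.68 and 8.44 in REST KO cells, which gave 1.28 ± 0.15 (adjusted p = 0.0239). The dimmest was at 5.81, 6.13 and 6.10 in control and 7.66, 7.98 and 7.78 in REST KO cells, which gave 1.79 ± 0.13 (adjusted p = 0.0239) or 3.47-fold. All 3 probes were detected on all 6 arrays, and none overlapped between genotypes. In the authors' deposited table the probes had log2 fold changes of 1.13, 0.94 and 1.04 from the brightest to the dimmest, with adjusted p of 0.00613, 0.00549 and 0.00285. There 1.74% of all probes passed an adjusted p of 0.05, and the dimmest Hes6 probe ranked 2 by p.

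Of all tested probes 1.27% were called, and the 8 tested here held 3 called ones, all of Hes6. Of the 6 tested genes 1 was called, and of all 8636 tested genes 1.37% were called, 1.11% higher and 0.255% lower. By size of rise Hes6 was at rank 91 of the 8636, with 1.04% of genes above it. The call of the brightest Hes6 probe rests on all but 2 of the arrays and on the fit. It was lost with the replicate number as a block (log2 1.28, adjusted p = 0.0720), where 0 probes of any gene were called and 2376 had an unadjusted p under 0.05, and when no filter on detection was set (1.28, 0.0536). It was also lost without control replicate 1 (log2 1.11, adjusted p = 0.0782) and without REST KO replicate 1 (1.29, 0.165), 2 (1.20, 0.166) or 3 (1.35, 0.0680), fits in which limma called 0 probes of any gene (1445 to 2085 had an unadjusted p under 0.05). Without control replicate 2 or 3 it held (adjusted p = 0.0150 and 0.0152).

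**Figure D1:**
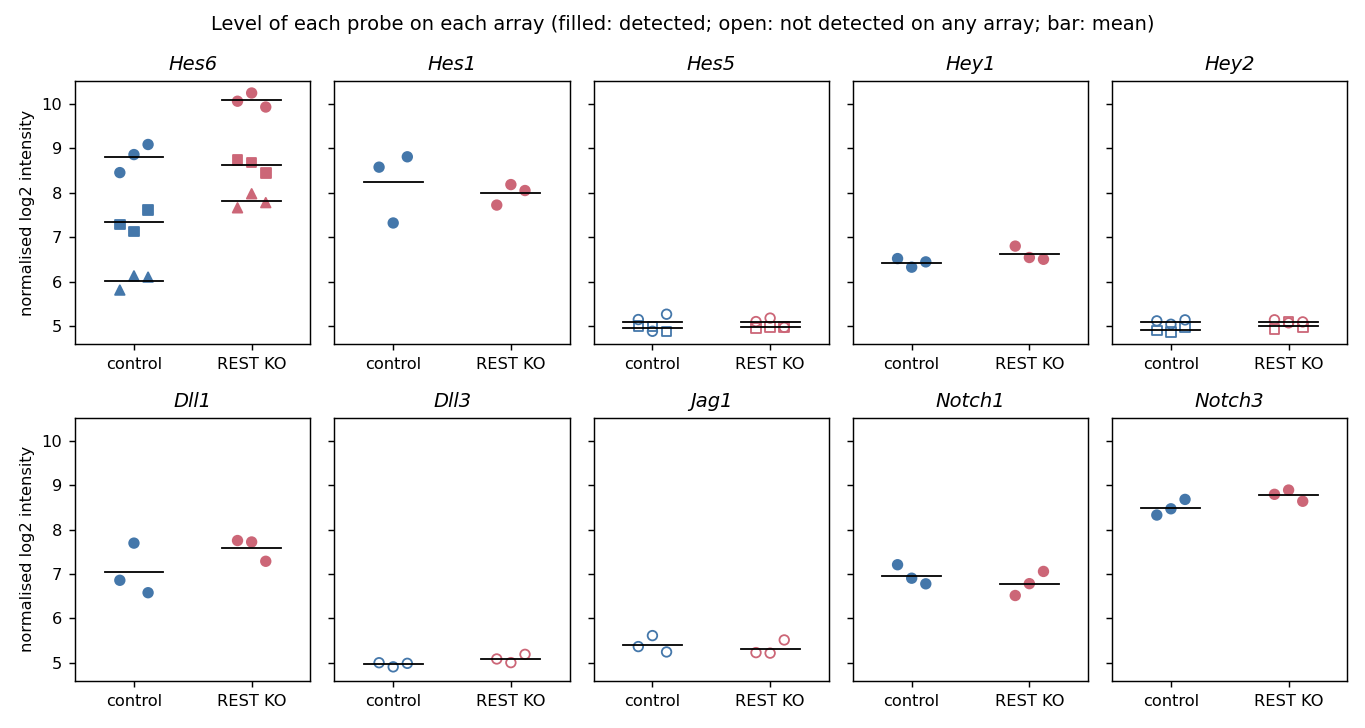
Normalised log2 intensity (vertical axis) of the 14 probes of the 10 genes in control (blue) and REST KO (red) cells. Each point is 1 array, symbols separate probes of a gene, bars are means over 3 arrays, and open symbols are probes detected on no array. The Hes6 points of each probe separate by genotype, while those of every other detected gene overlap.

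Hes1, a Notch-induced repressor that is also expressed in ES cells, was not called. It was at 8.58, 7.32 and 8.81 in control replicates 1, 2 and 3 and at 7.72, 8.19 and 8.05 in REST KO cells. Control replicate 2 was below all REST KO arrays and the other controls were above them. The log2 fold change was -0.25 ± 0.37 (adjusted p = 0.747). Without control replicate 2 it was -0.71 and called (adjusted p = 0.0333), and without control replicate 3 it was 0.038, so its direction rests on single control arrays. The fit without control replicate 2 called 15.4% of all tested genes, against 1.37% with all arrays.

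Hey1, which encodes a Hes-related repressor, was at 6.52, 6.32 and 6.44 in control and at 6.80, 6.54 and 6.50 in REST KO cells. The groups overlapped, with a log2 fold change of 0.19 ± 0.12 (adjusted p = 0.427). Hes5, the Notch-induced repressor typical of neural progenitors, had probes at 4.88 to 5.27 over all arrays and was not detected. Hey2, known for its role in the developing heart, had probes at 4.86 to 5.14 and was not detected either. These values are background, so no fold is given for Hes5 and Hey2.

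Among the ligands, Dll1 was at 6.86, 7.69 and 6.58 in control and 7.75, 7.72 and 7.28 in REST KO cells. Control replicate 2 lay among the REST KO arrays and the other controls lay below them. The log2 fold change was 0.54 ± 0.29 (adjusted p = 0.338). Without control replicate 2 it was 0.87 and called (adjusted p = 0.0251), in the fit that called 15.4% of all tested genes. Dll3, a divergent ligand that does not activate receptors on neighbouring cells, read 4.91 to 5.00 in control and 5.00 to 5.19 in REST KO cells, and Jag1 read 5.24 to 5.61 and 5.22 to 5.51, all not detected.

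Both receptors were detected on all arrays. Notch1, the receptor most studied in neural progenitors, was at 7.21, 6.90 and 6.78 in control and 6.51, 6.78 and 7.06 in REST KO cells. The groups overlapped, and the log2 fold change was -0.18 ± 0.17 (adjusted p = 0.608). Notch3, a receptor known from vascular smooth muscle, was at 8.33, 8.47 and 8.68 in control and 8.79, 8.89 and 8.64 in REST KO cells. Only control replicate 3 overlapped with the REST KO arrays, and the log2 fold change was 0.28 ± 0.13 (adjusted p = 0.278). With no array left out, Hes6 was the only 1 of the 6 tested genes whose groups did not overlap, a pattern that 26.1% of all tested genes had.

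**Figure D2:**
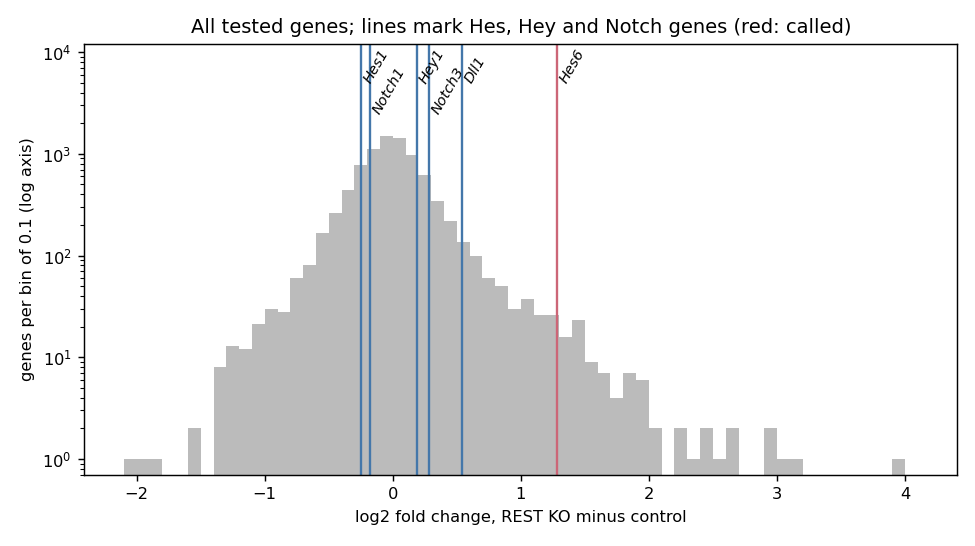
Histogram of log2 fold changes (horizontal axis, REST KO minus control) of the brightest tested probe of 8636 genes, with the number of genes per bin on a log axis. Lines mark the 6 tested genes, with Hes6 at 1.28, where 1.04% of genes lie further right, and the other genes between -0.25 and 0.54.

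Whether Hes6 changed by more than the other genes was asked within each array. The log2 level of another gene was subtracted from that of Hes6 (brightest probe), and the differences were compared between genotypes. With 3 arrays against 3, an exact permutation test cannot give a p below 0.1, so no pair could pass 0.05. Against Hes1 the change of Hes6 was larger by 1.53 ± 0.52 on the log2 scale (SE, exact p = 0.1, 0.125 adjusted over 5 pairs). The differences were -0.12 to 1.54 in control and 1.88 to 2.34 in REST KO cells, with the highest control value from control replicate 2. Against Hey1 the change was larger by 1.09 ± 0.26, with 1.94 to 2.64 in control and 3.26 to 3.71 in REST KO cells (exact p = 0.1).

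Against both receptors too, every REST KO array lay above every control array. Against Notch1 the excess was 1.46 ± 0.38, and against Notch3 it was 1.00 ± 0.09, the most even of the 5 pairs over arrays, with 0.13 to 0.41 in control and 1.27 to 1.36 in REST KO cells (exact p = 0.1 for each). Dll1 differed from this. Its excess was 0.74 ± 0.41, and the control range of 1.17 to 2.51 overlapped with the REST KO range of 2.31 to 2.65 (exact p = 0.2). At these levels the change of Hes6 was not separated from that of Dll1. That depended on the normalisation: the excess was 0.80 without background correction (exact p = 0.1) and 0.72 with cyclic loess (exact p = 0.3). With the middle probe of Hes6 the excess over Dll1 was 0.74 ± 0.47 (exact p = 0.3), and with the dimmest 1.25 ± 0.36 (exact p = 0.1). Over Hes1 these probes gave 1.53 ± 0.40 and 2.04 ± 0.52. Leaving out single arrays kept each of the 5 excesses above 0, at lowest 1.19 for Hes1 and 0.44 for Dll1.

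**Figure D3:**
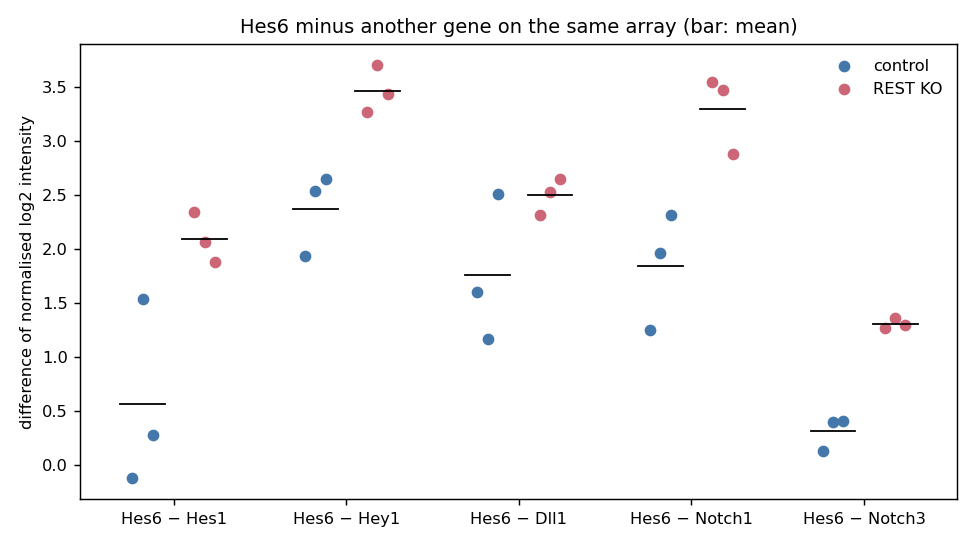
Difference of normalised log2 intensity (vertical axis) between Hes6 and each of 5 other genes on the same array, for control (blue) and REST KO (red). Points are arrays and bars are means. The groups are apart for Hes1, Hey1, Notch1 and Notch3 and overlap for Dll1, where control replicate 3 lies among the REST KO arrays.

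Control replicate 2 stood apart from the other controls in some Notch-related genes and in genes outside the pathway. Without it 14.6% of all tested probes were called, against 1.27% with all arrays. How often each control array was the most extreme over all genes is not given here. Control replicate 2 had the lowest Hes1 of all 6 arrays and the highest Dll1 of the controls. Its Notch1 and Notch3 lay between the other controls. Nrarp, a Notch target that dampens the signal, was at 5.68 there, not detected, while control replicates 1 and 3 had 6.84 and 6.92 and the REST KO arrays 6.97 to 7.27. Dtx1, an E3 ligase gene of the Deltex family, was at 5.40, also not detected, where control replicates 1 and 3 had 7.06 and 6.92 and the REST KO arrays 6.33 to 6.84. Nrarp and Dtx1 were singled out after their values were seen, and neither was called (adjusted p = 0.310 and 0.921). Of the 7 ES cell genes 5 were at their lowest control value on that array, and Pou5f1 and Tdgf1 lay between the other controls. Esrrb, the one plotted, was also singled out after its values were seen. It was lower on that array, at 13.32, with 14.75 and 14.70 on control replicates 1 and 3 and 12.97 to 13.77 over the REST KO arrays. The part that the state of these cells plays in the Hes1 and Dll1 values was not tested. For the brightest Hes6 probe, control replicate 2 lay between the other controls.

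**Figure D4:**
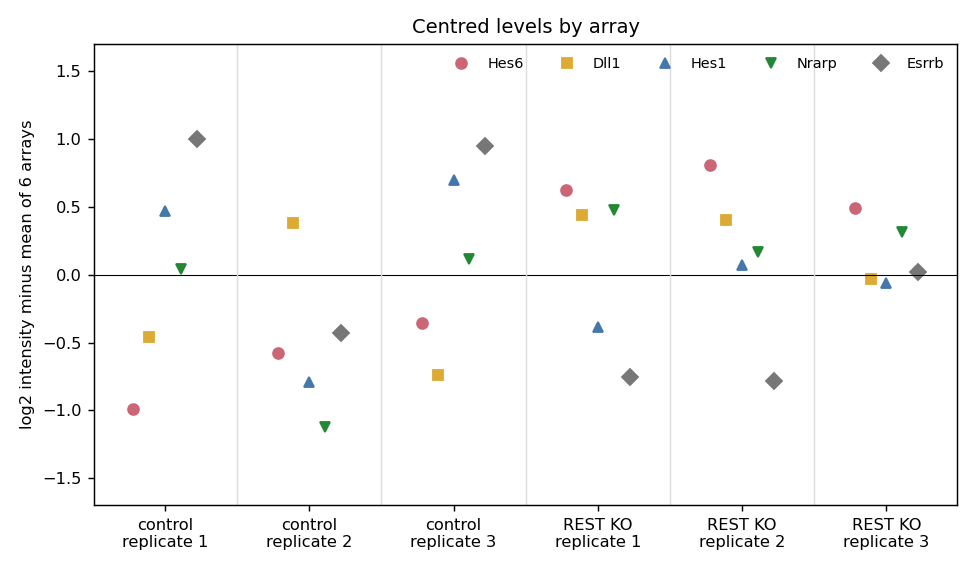
Log2 intensity minus the mean of the 6 arrays (vertical axis) for Hes6, Dll1, Hes1, Nrarp and Esrrb on each array. On control replicate 2, Hes1, Nrarp and Esrrb are low and Dll1 is high against the other controls, whereas Hes6 follows the genotype on all 6 arrays.

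In the rest of the pathway 0 of 29 tested genes were called in either direction, where 1.37% of all tested genes were. The list holds 50 genes, of which 48 are on the array and 29 were tested. It was written from general knowledge, but with earlier results of these data known. The median log2 fold change of the 29 was -0.07, against -0.01 over all tested genes, and 6 of them (20.7%) had an unadjusted p under 0.05 in limma, about the 20.4% of all tested genes that did. Other settings called up to 5 of them, the 5 without control replicate 2, where 15.4% of all tested genes were called. Dlk1, an imprinted gene for a non-canonical ligand, came nearest: it was at 6.59, 6.75 and 6.76 in control and at 7.29, 7.79 and 7.48 in REST KO cells, with no overlap. Its log2 fold change of 0.82 ± 0.15 had a limma adjusted p = 0.0504, which was between 0.0227 and 0.187 in the alternatives. That p was under 0.05 with the other normalisations, the offset of 50 and a detection p under 0.01. It was above 0.05 when all arrays had to detect a probe (0.0543) and with no filter (0.0669).

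Notch4, a receptor gene best known from endothelium, had the lowest value of the list. It was at 10.09, 8.70 and 10.03 in control and at 8.23, 8.04 and 9.10 in REST KO cells, where control replicate 2 lay among the REST KO arrays. The log2 fold change was -1.15 ± 0.42 (adjusted p = 0.195), and without control replicate 2 it was -1.60 and called (adjusted p = 0.0205). That fit called 15.4% of all tested genes. For Pofut1, the O-fucosyltransferase that modifies Notch receptors, it was -0.42 ± 0.13, and for Rfng, a fringe glycosyltransferase acting on the same sugars, it was 0.38 ± 0.15.

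The remaining named genes of the list also had values on both sides of 0. The log2 fold change was -0.34 ± 0.12 for Dtx3 and 0.33 ± 0.14 for Dtx4, both of the Deltex family. It was -0.38 ± 0.15 for Tle1, a Groucho-type corepressor that binds Hes proteins, and 0.68 ± 0.31 for Dner, a Notch-like transmembrane protein gene of neurons. Control replicate 1 did not detect Dtx4 and control replicate 2 did not detect Dner. Adjusted p of these 4 genes, Pofut1 and Rfng ran from 0.142 to 0.275. The genes for RBPJ itself (3 probes) and the receptor Notch2 (2 probes) were detected on no array.

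**Figure D5:**
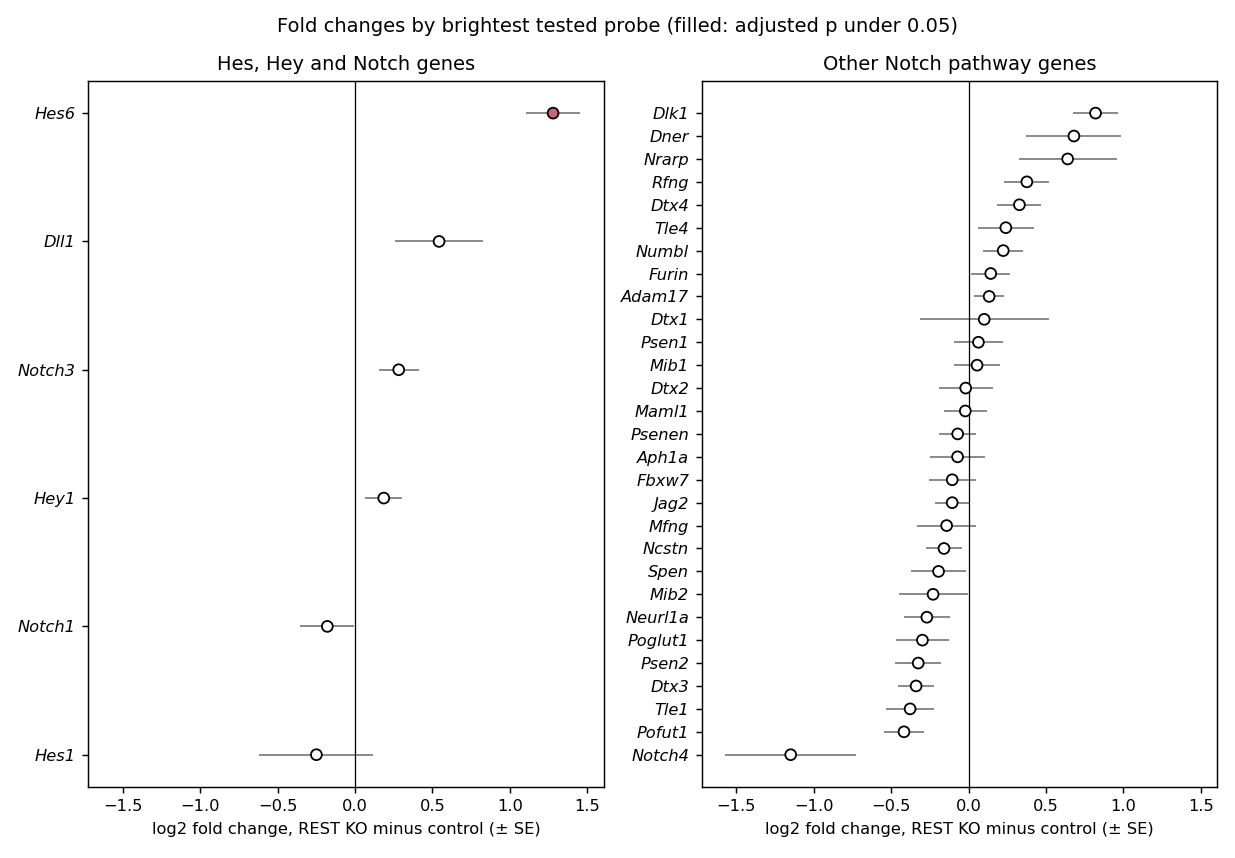
Log2 fold change (horizontal axis, REST KO minus control, bars ± SE) of the brightest tested probe for the 6 tested Hes, Hey and Notch genes (left) and 29 other genes of the pathway (right). Only Hes6, at 1.28, is filled, which marks an adjusted p under 0.05, and the other genes range from Notch4 at -1.15 to Dlk1 at 0.82.

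Proneural genes are known to induce Hes6 and Dll1 in the nervous system. The proneural list also held Insm1, Mycn and Olig2, to which that statement does not extend. Genes of the list were mostly not detected. Of 10 on the array 7 were detected on no array, among them Neurog1, Neurog2, Neurod1 and Atoh1. The 2 tested genes were both higher on average without being called. Neurog3, the proneural factor of the endocrine pancreas, was at 5.71, 7.93 and 6.03 in control and 8.69, 8.77 and 7.85 in REST KO cells (log2 1.88 ± 0.57, adjusted p = 0.134). Control replicate 1 did not detect it and control replicate 2 lay among the REST KO arrays. Insm1, a zinc-finger gene of neuronal and endocrine progenitors, was at 7.26, 9.11 and 8.69 in control and 10.34, 10.52 and 10.00 in REST KO cells (1.93 ± 0.44, adjusted p = 0.0798), with no overlap. Both were called with array weights (2.38 and 2.12, adjusted p = 0.0175 and 0.0227), where 12.2% of all tested probes were called. Insm1 was also called without background correction (1.64, adjusted p = 0.0375), where 2.92% were. With control replicate 2 left out both were called, at 2.57 and 2.31 (adjusted p = 0.00898 and 0.0176). In this last fit 15.4% of all tested genes were called, as were 3 of the 6 tested Hes, Hey and Notch genes (Hes6 and Dll1 rose and Hes1 fell).

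The 5 genes nearest to Hes6 in pattern, by the distance between log2 levels centred on the mean of the 6 arrays, were Tes (distance 0.18), Mlkl (0.22), Exoc3l (0.27), Ccnd2 (0.27) and Ncan (0.28). Tes encodes a focal adhesion protein, Ccnd2 a D-type cyclin and Ncan the brain proteoglycan neurocan. Tes, for example, was at 8.72, 9.17 and 9.31 in control and 10.46, 10.45 and 10.12 in REST KO cells. The likeness is over 6 arrays of 2 genotypes and follows largely from the difference between them.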

How the data were processed

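The deposited intensity of a probe is its mean over beads, exported from BeadStudio 3.3.7 without normalization, per the file headers. The detection score deposited beside it rises with signal, so 1 minus the score served as the detection p. The authors' deposited log2 values equal quantile normalized log2 intensities to within 5e-09. Fold changes and adjusted p-values of the authors' deposited table were made with limma, per the labels, with options not given in the sources used here. From the intensities, neqc in limma 3.58.1 (R 4.3.3) gave background-corrected (normal-exponential model, offset 16), quantile normalised log2 levels. The offset draws the fold changes of dim probes toward 0. lmFit and eBayes used genotype alone over all 11388 tested probes. The 14 probes of the 10 genes were read on 27 to 67 beads per array, and all tested probes on 13 to 148. With 3 arrays per genotype, precision is limited by the number of arrays.

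Symbols came from the authors' deposited table, otherwise from target names, updated through RefSeq (GRCm38.p6). Probe positions and build are not given here. Promoters are RefSeq's. Named genes were the 10 genes, up to 8 and 4 further genes with the smallest adjusted p of the pathway and proneural lists, and the 5 nearest to Hes6. The planned search for genes nearest to Hes5 was not run, as no array detected Hes5. Members and lists were chosen with earlier results of these data known. The labels do not say whether replicates were separate cultures, so the spread behind each p-value may be technical. Replicate numbers are shared by both genotypes, but same-numbered arrays deviated together for only 2 of 3 numbers (correlations of -0.27, 0.34 and 0.36), so they were not treated as pairs. The limma step was tested on simulated data. Alternatives were other normalizations, offsets, filters, variance models, array weights, a replicate block and leaving out each array.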

Additional observations from a re-analysis of the deposited data

How the results depend on the processing

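All settings were planned. Hes6 stayed above 0 in all of them, between 1.11 and 1.45 on the log2 scale, with an adjusted p from 0.00875 to 0.166. Its brightest probe was not called with no filter (adjusted p = 0.0536), where 2 of its 3 probes were, and with the replicate block (0.0720). Hes1 (-0.25) ran from -0.71 without control replicate 2 to a reversed 0.038 without control replicate 3. Dll1 was also called with array weights (0.81, adjusted p = 0.0464). The 145 probes called became 332 without background correction, 274 with an offset of 50, 69 when all arrays had to detect a probe, 50 with no filter, 364 with a variance trend and robust eBayes, 1386 with array weights, 0 with the replicate block (2376 had an unadjusted p under 0.05), and 0 to 1668 with 1 array left out. The count of called genes among the 10 was 0 with no filter and with the replicate block, 2 with array weights and 0 to 3 with 1 array left out. Of the other pathway genes 1, Dlk1, was called without background correction, with cyclic loess and with an offset of 50. The same was so with a detection p under 0.01 and with a variance trend. With array weights 3 were called (Dlk1, Notch4 and Rfng), and with 1 array left out 0 to 5. The share of all tested probes called moved as well. It was 1.27% in the main fit, 0.195% with no filter and 0% with the replicate block. Where Dlk1 alone of the other pathway genes was called in these settings, it was 1.21% to 3.20%. With array weights it was 12.2%, and with 1 array left out 0% to 14.6%. The cause of these shifts was not tested, other than that fewer or more probes enter the adjustment when the filter changes. The excess of Hes6 over each of the 5 other genes kept its direction in all 9 alternatives, from 0.44 to 2.02. Hes5, Hey2, Dll3 and Jag1 lay at background on every array, which limits them to being not detected. The replicate numbers are shared only as numbers: of 6 arrays 3 correlated best with the same number in the other genotype.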
